A study of Mus musculus with 6 samples.

Results

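The genes described here are 10 members of the retinoic acid pathway of the mouse: the retinol and retinaldehyde oxidoreductase genes Rdh10 and Dhrs3, the synthesis genes Aldh1a1, Aldh1a2 and Aldh1a3, the breakdown genes Cyp26a1 and Cyp26b1, the cellular binding protein genes Crabp1 and Crabp2, and the receptor gene Rarb. They were taken by symbol, with no cut on their values, from the 53801 genes of the count tables. Earlier results of these data were known when they were chosen. All 10 were among the 17514 genes that passed the filter on low counts and were tested.

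RNA of whole maxillary prominences, the embryonic tissue that forms the upper jaw and the palatal shelves, was sequenced at E12.5 in 3 WT and 3 wnt1cre; Rosa26Dlx2/- samples, called Dlx2OE from here on. The strain label of both groups is C57BL/6. The protocol gives C57BL/6J for the knock-in line and for the purchased WT mice, and the background of the wnt1cre parent was not given in the sources used here. Dlx2OE embryos carry wnt1cre and 1 Rosa26 CAG-LSL-Dlx2-3xFlag allele, so that Cre removes a stop cassette and the CAG promoter drives Flag-tagged Dlx2, a homeobox transcription factor, in the neural crest lineage. WT embryos carry neither, and no group with Cre alone was analysed here. By the labels the RNA came from 7 littermates, and the 3 samples of a genotype were independent. The methods of the study give another number of littermates. A sample may pool embryos, and the p-values measure the spread between such samples.

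Retinoic acid is a small lipid hormone made from vitamin A (retinol). Rdh10 oxidises retinol to retinaldehyde and Dhrs3 turns retinaldehyde back to retinol, while the Aldh1a enzymes oxidise retinaldehyde irreversibly to retinoic acid. The Cyp26 enzymes clear retinoic acid, the Crabp proteins bind it in the cytoplasm, and the receptors of the Rar and Rxr families carry it on DNA, where they act as paired transcription factors. In the developing face and palate both too much and too little retinoic acid are known to cause clefts, and Cyp26b1 is known to be needed for palate formation.

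Cyp26a1 and Rarb are textbook targets of retinoic acid, which acts through direct repeats of a six-letter receptor site. The bases before the RefSeq start of the gene, on the gene's strand and in build GRCm38.p6, are shown for both breakdown enzymes, whose ratio differed without overlap between the genotypes, and for Rarb, because the repeat is present in 2 of these 3 genes. They cover chr19:37697558-37697807 for Cyp26a1 (forward strand), chr6:84593811-84594060 for Cyp26b1 (reverse strand) and chr14:16575477-16575726 for Rarb (reverse strand), and capitals mark a repeat with 5 bases between its sites (DR5).
Cyp26a1: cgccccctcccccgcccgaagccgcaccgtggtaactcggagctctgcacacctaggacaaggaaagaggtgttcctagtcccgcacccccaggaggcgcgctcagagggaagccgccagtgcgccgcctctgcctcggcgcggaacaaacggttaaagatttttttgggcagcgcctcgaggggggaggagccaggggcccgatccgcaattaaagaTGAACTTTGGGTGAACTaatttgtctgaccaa
Cyp26b1: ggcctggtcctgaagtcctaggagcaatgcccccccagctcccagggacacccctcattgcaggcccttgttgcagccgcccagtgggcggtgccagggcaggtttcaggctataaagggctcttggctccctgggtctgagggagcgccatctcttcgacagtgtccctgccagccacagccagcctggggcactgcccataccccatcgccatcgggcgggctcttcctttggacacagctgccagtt
Rarb: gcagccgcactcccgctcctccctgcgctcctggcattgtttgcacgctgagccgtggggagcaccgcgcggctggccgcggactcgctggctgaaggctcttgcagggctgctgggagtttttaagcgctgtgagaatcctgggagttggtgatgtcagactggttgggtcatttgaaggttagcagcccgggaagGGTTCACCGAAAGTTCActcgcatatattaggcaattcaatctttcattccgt
The sites searched were AGGTCA or AGTTCA or GGGTCA or GGTTCA, on both strands, in 300 bases from 250 before to 50 after each RefSeq start. Windows were found for 7 of the 10 members, 10 windows in all, and not for Aldh1a3, Rdh10 and Crabp2. In Rarb the DR5 lay 53 to 37 bases before the start and read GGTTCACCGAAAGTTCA on the gene's strand. In Cyp26a1 it lay 32 to 16 bases before the start and read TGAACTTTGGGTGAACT on the gene's strand, so that its sites face the other way. The other 5 members with a window, Cyp26b1 among them, held no DR5. Of all 32817 windows 0.0975% held one, while 43.7% held at least 1 single site, and the Cyp26b1 window held none. A match is a description of letters and not a bound site.

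Total counts on genes were 30332754 to 31308813 in WT and 26155500 to 30570784 in Dlx2OE. A count of 3, taken as the floor, was 0.0955 to 0.111 CPM, the count relative to a library size scaled by the TMM method of edgeR. Counts of Dlx2 were 1255, 1056 and 1409 in the WT samples and 3521, 4102 and 3336 in the Dlx2OE samples, a log2 fold change of 1.60 ± 0.118 (SE, edgeR adjusted p = 0.00241). The transgene and the endogenous gene cannot be told apart in these counts. Genotype separated the samples on the first principal component (47.7% of the variance), and Dlx2OE sample 1 stood apart from the other 5 on the second (23.3%). Reads on no annotated gene were 5.03 to 5.43% of reads in WT and 5.75%, 7.81% and 14.7% in Dlx2OE samples 1 to 3.

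Of the 10 members, 1 fell and none rose. This was Cyp26a1, a retinoic acid hydroxylase, at an adjusted p under 0.05 in the quasi-likelihood F test of edgeR, adjusted over all genes tested by the Benjamini-Hochberg method. Of all genes tested, 6.45% passed, 2.99% higher and 3.46% lower in Dlx2OE, so the members' share was near the background. No member passed in edgeR with a log2 fold change above 1 or below -1, which 1.5% and 1.62% of all genes did, while Cyp26b1 did both in DESeq2 (1.15, adjusted p = 0.000272). At an unadjusted p under 0.05 there were 3 members, 1 higher and 2 lower. The genotypes did not overlap for 3 members: Cyp26b1 was higher in Dlx2OE, and Cyp26a1 and Dhrs3 were lower. Of all genes, 34.1% did not overlap, 16.7% higher and 17.3% lower, and 29.5% had an unadjusted p under 0.05. DESeq2 called 2 members, Cyp26a1 and Cyp26b1, beside 13.4% of the genes it tested. The median log2 fold change of the members was -0.29, and that of all genes tested was 0.0028. In these bulk samples, fewer cells that express a gene and less RNA of it per cell cannot be told apart.

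**Figure D1:**
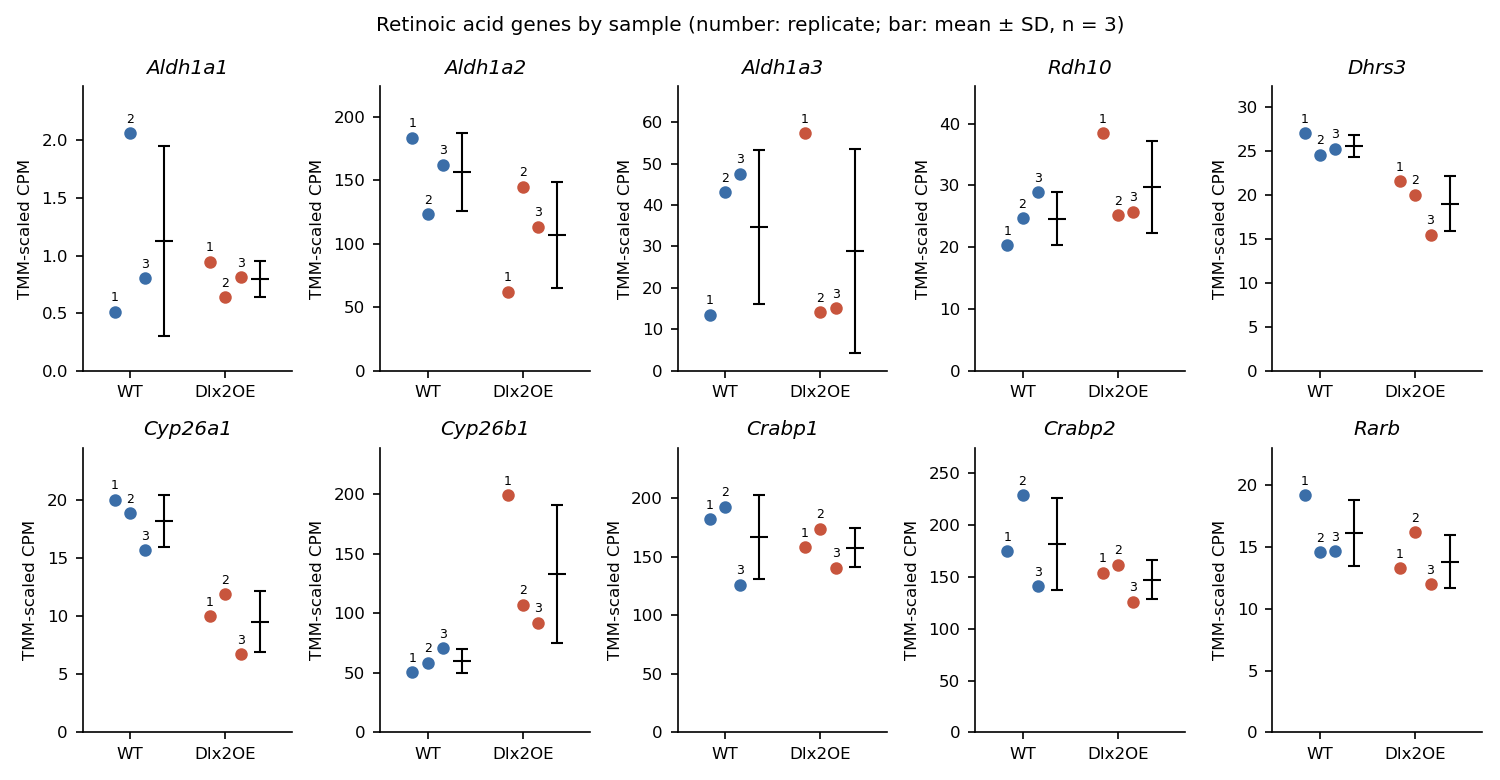
TMM-scaled CPM (vertical axis, from 0) of the 10 genes in each of the 3 WT and 3 Dlx2OE samples. Numbers are replicate numbers, and the black bar is the mean ± SD of the genotype. The genotypes do not overlap for Cyp26a1, Cyp26b1 and Dhrs3, and Aldh1a3 splits into 3 high and 3 low samples across both genotypes.

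Levels of different genes were compared per length of exon sequence, as RPKM. In WT the binding proteins had the highest levels, with 208 ± 44.5 RPKM for Crabp1 and 137 ± 33.6 RPKM for Crabp2 (SD, n = 3), and the 3 samples of each overlapped. Aldh1a2 followed with 69.1 ± 13.5 RPKM, separate from the genes above and below it. Cyp26b1 (11.2 ± 1.87 RPKM), Cyp26a1 (9.18 ± 1.13 RPKM), Dhrs3 (8.75 ± 0.425 RPKM), Aldh1a3 (7.53 ± 4.01 RPKM) and Rdh10 (5.92 ± 1.03 RPKM) formed a run in which each gene overlapped the next. Rarb (3.07 ± 0.503 RPKM) and Aldh1a1 (0.228 ± 0.166 RPKM) lay below and apart from each other. In Dlx2OE the first 4 places were the same, Cyp26a1 stood eighth at 4.81 ± 1.32 RPKM, and Cyp26b1 at 24.8 ± 10.9 RPKM no longer overlapped the gene after it. With the length of the longest transcript in place of all exons, 8 of 10 genes kept their place in WT.

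Cyp26a1 (ENSMUSG00000024987; GRCm38 chromosome 19, 37697798 to 37701536, forward strand) had 20.0, 18.9 and 15.7 CPM in WT and 9.99, 11.9 and 6.72 CPM in Dlx2OE. Every Dlx2OE sample lay below every WT sample. WT averaged 18.2 ± 2.25 CPM, and Dlx2OE 9.54 ± 2.62 CPM (SD, n = 3 each), which in the fit was a log2 fold change of -0.93 ± 0.224 (SE), with a 95% interval of -1.45 to -0.41 and an edgeR adjusted p of 0.0496. The exact two-sided permutation test gave p = 0.1, the smallest that 3 against 3 samples allow. The call lay at the threshold. The adjusted p (edgeR) was 0.139 without WT sample 1, 0.170 without WT sample 2, 0.0734 without Dlx2OE sample 2 and 0.0974 without Dlx2OE sample 3, with log2 fold changes from -1.12 to -0.73 over all 6 omissions. It also missed the threshold with RLE factors (adjusted p = 0.0506), with library size alone (0.0556) and after a correction for gene length and GC content (0.0923), all from edgeR.

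Cyp26b1 (ENSMUSG00000063415; chromosome 6, 84571414 to 84593908, reverse strand), the other main enzyme of retinoic acid breakdown, had 50.6, 58.4 and 70.5 CPM in WT and 199, 107 and 92.0 CPM in Dlx2OE. Every Dlx2OE sample lay above every WT sample, and Dlx2OE sample 1, which stood apart in the whole transcriptome, was the highest. WT averaged 59.8 ± 10.02 CPM, and Dlx2OE 133 ± 58.1 CPM (SD, n = 3 each), 2.22-fold higher in the fit. The log2 fold change was 1.15 ± 0.282 (SE), with a 95% interval of 0.50 to 1.80, and the edgeR adjusted p of 0.0515 missed the threshold. The exact permutation p was 0.1. Without Dlx2OE sample 1 the log2 fold change was 0.73 with an adjusted p of 0.0295, and without Dlx2OE sample 3 it was 1.36 with an adjusted p of 0.0479 (edgeR). In the other 4 omissions the edgeR adjusted p was 0.0602 to 0.183, and after the correction for gene length and GC content it was 0.0737. DESeq2 gave 1.15 with an adjusted p of 0.000272.

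Cyp26c1 (chromosome 19, 37685581 to 37693398, forward strand), a related hydroxylase next to Cyp26a1, had 24.5, 16.2 and 10.5 CPM in WT and 10.5, 12.8 and 9.97 CPM in Dlx2OE. Its log2 fold change was -0.62 (edgeR adjusted p = 0.192). With all 3 enzymes on the RPKM scale, Cyp26b1 made up 28.2%, 36.7% and 48.6% of the Cyp26 level in WT and 77.1%, 60.1% and 65.4% in Dlx2OE. The share of Cyp26a1 was 30.1%, 32.0% and 29.2% in WT and 10.4%, 18.0% and 12.9% in Dlx2OE. The share of Cyp26c1 was 41.8%, 31.2% and 22.2% in WT and 12.4%, 21.9% and 21.7% in Dlx2OE. For each share the genotypes did not overlap (exact permutation p = 0.1 for each of the 3). The 3 shares are parts of the same sum, so they are not separate results. The Cyp26c1 shares lay close at 22.2% in WT sample 3 and 21.9% in Dlx2OE sample 2, and the CPM values of Cyp26c1 overlapped. The summed Cyp26 level overlapped between the genotypes, with 33.6, 29.7 and 27.1 RPKM in WT and 48.3, 33.4 and 26.3 RPKM in Dlx2OE (exact permutation p = 0.7).

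The ratio of the 2 breakdown genes within a sample needs no scaling between samples. There were 2.53, 3.09 and 4.49 Cyp26b1 counts for each Cyp26a1 count in WT and 20.0, 9.02 and 13.7 in Dlx2OE. On the log2 scale the ratio was 1.71 ± 0.42 in WT and 3.76 ± 0.57 in Dlx2OE (SD, n = 3 each), a difference of 2.04 (exact permutation p = 0.1, the smallest possible). The difference was 1.76 to 2.34 when any 1 sample was omitted. Both the ratio and these omissions were added once the values were known. Both genes were also part of the comparisons above, so the ratio is no independent measure. Since every Dlx2OE sample was higher for Cyp26b1 and lower for Cyp26a1, the ratio could not overlap, and its permutation p was fixed by those values. Over the 11 shares, sums and ratios of members compared by permutation, the smallest adjusted p was 0.183 (exact permutation tests, Benjamini-Hochberg). None of these 11 was among the planned comparisons.

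**Figure D2:**
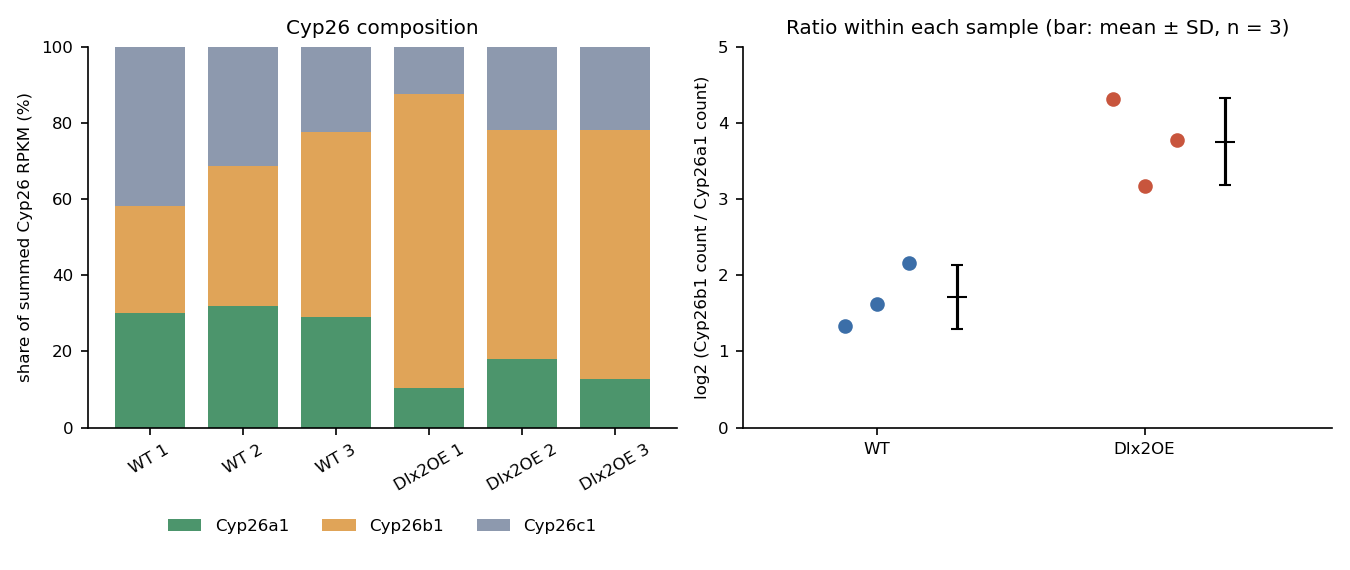
Left, share of each Cyp26 gene in the summed Cyp26 level (percent, RPKM scale) in each sample. Right, log2 of the Cyp26b1 count over the Cyp26a1 count in each sample, with the mean ± SD of each genotype as black bars. Cyp26b1 makes up 28.2 to 48.6% in WT and 60.1 to 77.1% in Dlx2OE, and the ratios of the genotypes do not overlap.

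Cyp26a1 and Rarb are the 2 members with a DR5 in the windows shown above. Rarb (ENSMUSG00000017491; chromosome 14, 16430839 to 16819156, reverse strand), the retinoic acid receptor beta, had 19.2, 14.6 and 14.7 CPM in WT and 13.3, 16.2 and 11.96 CPM in Dlx2OE. The genotypes overlapped, and the log2 fold change was -0.22 ± 0.179 (SE), with a 95% interval of -0.64 to 0.19 and an edgeR adjusted p of 0.425. In the annotation used here, 38.4% of its exon sequence overlaps Top2b and Gm48162, and its counts depend on how such reads were counted. The log2 ratio of Cyp26a1 to Rarb counts was 0.060, 0.37 and 0.098 in WT and -0.41, -0.44 and -0.83 in Dlx2OE, a difference of -0.74 (exact permutation p = 0.1). This ratio was not planned either. Cyp26a1 alone already did not overlap, so the ratio is no independent measure.

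Among the synthesis genes, Aldh1a2 (ENSMUSG00000013584; chromosome 9, 71215789 to 71296243, forward strand), the main retinaldehyde dehydrogenase of embryonic mesoderm and mesenchyme, had 183, 123 and 162 CPM in WT and 62.3, 145 and 114 CPM in Dlx2OE. Only Dlx2OE samples 1 and 3 lay below all WT samples. WT averaged 156 ± 30.5 CPM, and Dlx2OE 107 ± 41.8 CPM (SD, n = 3 each), and the log2 fold change was -0.55 ± 0.287 (SE) with a 95% interval of -1.21 to 0.11 (edgeR adjusted p = 0.239). Without Dlx2OE sample 1 it was -0.28. Aldh1a2 made up 84.8 to 96.4% of the summed Aldh1a level per length in WT and 68.6%, 95.3% and 93.6% in Dlx2OE samples 1 to 3. The summed Aldh1a level was 84.1, 64.3 and 82.2 RPKM in WT and 40.1, 67.3 and 53.6 RPKM in Dlx2OE (exact permutation p = 0.2).

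Aldh1a3 (ENSMUSG00000015134; chromosome 7, 66390890 to 66427517, reverse strand), the retinaldehyde dehydrogenase known from nasal and eye epithelia, split the samples without regard to genotype. It had 13.5, 43.1 and 47.6 CPM in WT and 57.2, 14.1 and 15.1 CPM in Dlx2OE. WT samples 2 and 3 and Dlx2OE sample 1 were high, and the other 3 were low. Its spread within genotypes was larger than that of 97.6% of the genes tested, and its log2 fold change of -0.27 had a 95% interval of -1.70 to 1.16 (edgeR adjusted p = 0.792). The sign turned without WT sample 3 (0.016), Dlx2OE sample 2 (0.059) or Dlx2OE sample 3 (0.038), and without Dlx2OE sample 1 the value was -1.26 (edgeR adjusted p = 0.105).

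The same 3 samples were high in the list of 8 markers of retina and pigment epithelium, whose summed level was 9.67, 77.6 and 47.1 CPM in WT and 44.8, 9.49 and 10.2 CPM in Dlx2OE. In those 3 samples most of the sum was Lhx2 and Six3, which the forebrain also expresses. Lhx2 had 0.923, 43.1 and 25.6 CPM in WT and 22.3, 1.75 and 4.25 CPM in Dlx2OE. The eye markers Rax and Rpe65 had 0 to 2 counts in every sample. Of the 6 lens markers only Bfsp1 passed the filter, and the lens sum was 2.39 to 4.32 CPM over all samples. The sum of 7 surface epithelium markers was 594, 1076 and 806 CPM in WT and 1540, 484 and 478 CPM in Dlx2OE. It was highest in the same 3 samples as well, and in Dlx2OE sample 1 its largest parts were Krt5 and Krt14 (538 and 490 CPM). Epcam, Cdh1, Krt14 and Trp63 were each highest in those 3 samples, but Krt5, Krt8 and Krt18 were not. Krt8 had 71.4, 142 and 85.9 CPM in WT and 26.3, 23.7 and 19.2 CPM in Dlx2OE. The sum of 5 nasal epithelium markers did not split this way, with 239, 277 and 301 CPM in WT and 116, 179 and 196 CPM in Dlx2OE, and Dlx2OE sample 1 was its lowest. The part of cell composition or dissection in the Aldh1a3 levels was not tested.

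**Figure D3:**
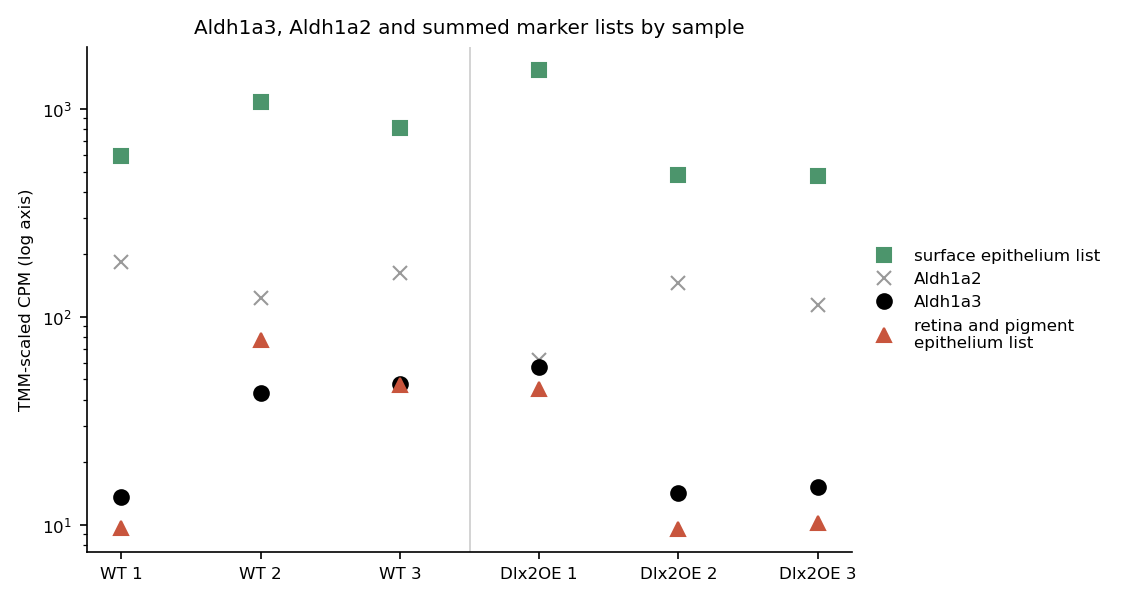
TMM-scaled CPM (log axis) of Aldh1a3 and Aldh1a2 and of 2 summed marker lists in each sample, with WT left and Dlx2OE right of the grey line. Aldh1a3 is 43.1 to 57.2 CPM in WT 2, WT 3 and Dlx2OE 1 and 13.5 to 15.1 CPM in the others. The sums of both marker lists are highest in the same 3 samples, though not every marker in them is.

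Aldh1a1 (ENSMUSG00000053279; chromosome 19, 20492715 to 20643465, forward strand) was rare. Its WT counts were 15, 62 and 25, and its Dlx2OE counts were 28, 20 and 22. WT sample 2 was the highest and the genotypes overlapped. The log2 fold change was -0.49 ± 0.512 (SE; edgeR adjusted p = 0.544), and it was 0.27 without WT sample 2.

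The oxidoreductases upstream of the Aldh1a step act in opposite directions. Rdh10 (ENSMUSG00000025921; chromosome 1, 16105774 to 16133734, forward strand) had 20.3, 24.7 and 28.9 CPM in WT and 38.4, 25.2 and 25.7 CPM in Dlx2OE. Its log2 fold change was 0.27 ± 0.201 (SE), with a 95% interval of -0.19 to 0.74 (edgeR adjusted p = 0.387), and it was 0.040 without Dlx2OE sample 1. Dhrs3 (ENSMUSG00000066026; chromosome 4, 144892827 to 144928209, forward strand) had 27.0, 24.6 and 25.2 CPM in WT and 21.5, 20.0 and 15.5 CPM in Dlx2OE. The genotypes did not overlap, but the log2 fold change of -0.43 ± 0.148 (SE; 95% interval -0.77 to -0.09) did not pass (edgeR adjusted p = 0.107). The log2 ratio of Dhrs3 to Rdh10 counts was 0.41, -0.01 and -0.19 in WT and -0.83, -0.33 and -0.73 in Dlx2OE, a difference of -0.70 without overlap (exact permutation p = 0.1). This ratio was not planned. Dhrs3 alone already did not overlap, so the ratio is no independent measure.

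Crabp1 (ENSMUSG00000032291; chromosome 9, 54764748 to 54773110, forward strand) and Crabp2 (ENSMUSG00000004885; chromosome 3, 87948666 to 87953376, forward strand), which bind retinoic acid in the cytoplasm and deliver it to breakdown or to the nucleus, overlapped between the genotypes. Crabp1 had 182, 193 and 126 CPM in WT and 158, 174 and 141 CPM in Dlx2OE, a log2 fold change of -0.08 ± 0.169 (SE; 95% interval -0.47 to 0.31; edgeR adjusted p = 0.768). Its sign turned after the correction for gene length and GC content, to 0.18. Crabp2 had 175, 229 and 141 CPM in WT and 154, 162 and 126 CPM in Dlx2OE, a log2 fold change of -0.30 ± 0.184 (SE; 95% interval -0.73 to 0.12; edgeR adjusted p = 0.303). In each genotype sample 3 was the lowest for both genes.

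Beyond the members, 6 lists of 49 further genes of the pathway were counted, of which 36 were tested. Of these, 1 rose and 1 fell (edgeR adjusted p under 0.05), beside 2.99% and 3.46% of all genes. DESeq2 called 9 of the 49, beside 13.4% of the genes it tested. Both edgeR calls were in the list of 17 genes known to respond to retinoic acid, 12 of them tested. Tgm2, the gene of tissue transglutaminase, had 9.43, 9.79 and 10.6 CPM in WT and 3.81, 4.55 and 4.76 CPM in Dlx2OE, a log2 fold change of -1.18 ± 0.179 (SE, edgeR adjusted p = 0.0152). Other annotated genes overlap 21.8% of its exon sequence.

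Of the 12 responsive genes tested, 5 had values above 0 and 7 below, with a median of -0.15. At an unadjusted p under 0.05 (edgeR) there were 5, 1 higher and 4 lower, beside 29.5% of all genes. The genotypes did not overlap for 1 higher and 4 lower, beside 16.7% and 17.3% of all genes. DESeq2 called 4 of the list, beside 13.4% of the genes it tested. Hoxd4 had no count in any library, and Hoxb1, Hoxb4 and Cdx1 had at most 3 counts in each.

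None of the 5 retinoid receptor genes other than Rarb passed in edgeR, and 1, Rarg, had an unadjusted p under 0.05. Rarg had 129, 135 and 152 CPM in WT and 212, 179 and 179 CPM in Dlx2OE, without overlap and with a log2 fold change of 0.45 (edgeR adjusted p = 0.0558, DESeq2 adjusted p = 0.0184). Rara had a log2 fold change of -0.22 (edgeR adjusted p = 0.301). The partner receptors had 0.11 for Rxra (adjusted p = 0.615), -0.15 for Rxrb (adjusted p = 0.273) and 0.48 for Rxrg (adjusted p = 0.520), all from edgeR. The 6 receptor coregulators were all tested and none passed in edgeR. All 6 log2 fold changes were above 0 with a median of 0.29, and 3 had an unadjusted p under 0.05, beside 29.5% of all genes. DESeq2 called 1, Ncor1 (0.37, DESeq2 adjusted p = 0.0397).

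In edgeR no gene passed among the 4 tested of 8 genes of retinol uptake, storage and transport, whose median log2 fold change was -0.35. Of the 4, 1 had an unadjusted p under 0.05, beside 29.5% of all genes. DESeq2 called 2 of the list, among them Ttr (adjusted p = 0.00262), which had 0 to 110 counts a sample and was removed by the count filter of edgeR. Among the 7 tested of 11 further retinol and retinaldehyde oxidoreductases, with a median of -0.26, none passed in edgeR and 1 had an unadjusted p under 0.05. DESeq2 called 1, Rdh14 (-0.47, DESeq2 adjusted p = 0.0403). Fabp5, which also binds retinoic acid, had a log2 fold change of -0.22 (edgeR adjusted p = 0.450).

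**Figure D4:**
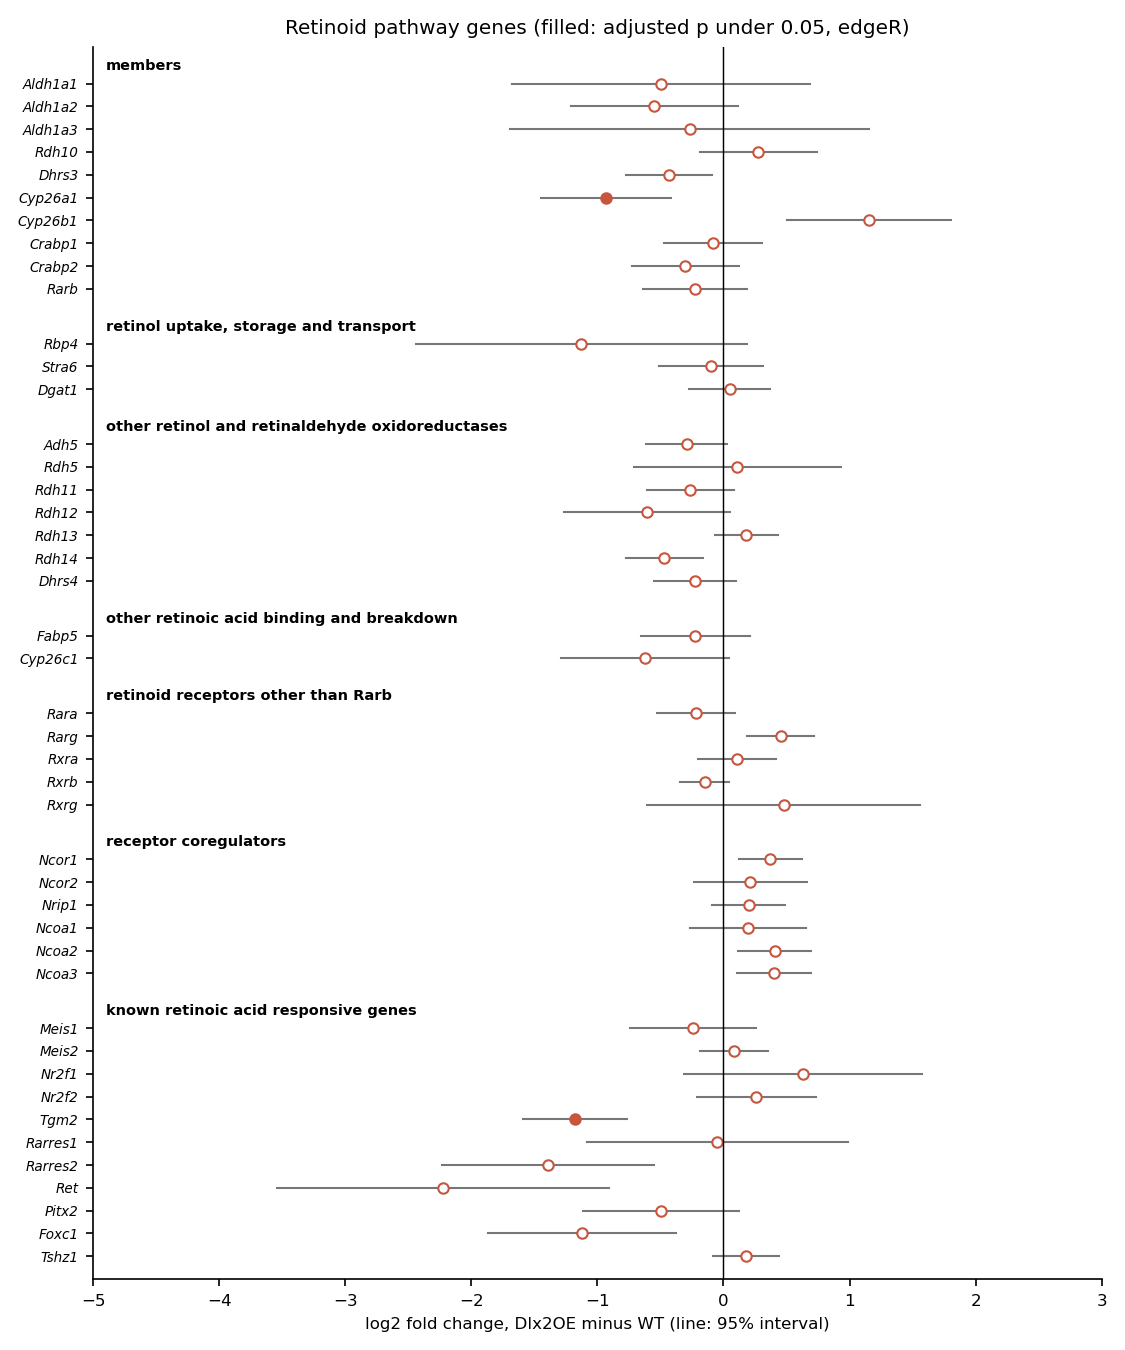
Log2 fold change (horizontal axis, Dlx2OE minus WT) with its 95% interval for the 10 members and 34 of the 36 tested genes of the 6 pathway lists. Filled points have an edgeR adjusted p under 0.05. Among the genes drawn these are Cyp26a1 and Tgm2, both on the lower side.

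Marker lists were read beside these values, since several moved with genotype, and calls are those of edgeR unless DESeq2 is named. The sum of 6 cranial neural crest mesenchyme markers was 1217 to 1532 CPM in WT and 1791 to 2235 CPM in Dlx2OE, and Twist1 and Alx4 rose. The sum of 5 nasal epithelium markers was 239 to 301 CPM in WT and 116 to 196 CPM in Dlx2OE, and 1 of them fell. Krt8 and Krt18 fell among 7 surface epithelium markers, which ranged from 594 to 1076 CPM in WT and from 478 to 1540 CPM in Dlx2OE. Erythroid markers (6 genes, 2 fell) summed to 3101 to 4225 CPM in WT and 1924 to 2490 CPM in Dlx2OE, and macrophage markers (5 genes, 2 fell) to 53.1 to 58.6 CPM and 32.0 to 42.7 CPM. Among 5 endothelial markers Emcn fell, and the sums of 246 to 378 CPM and 178 to 279 CPM overlapped. No marker passed in edgeR among neurons (60.5 to 280 CPM in WT, 180 to 847 CPM in Dlx2OE), glia (125 to 138 CPM, 88.7 to 188 CPM), skeletal muscle (85.6 to 166 CPM, 32.5 to 97.1 CPM) or cartilage (392 to 642 CPM, 226 to 529 CPM). At an unadjusted p under 0.05 there were 2, 0, 1 and 2 of them in that order, beside 29.5% of all genes. DESeq2 called 1 neuron marker, higher, and 2 cartilage markers, lower. Their part in the levels of the retinoic acid genes was not tested.

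The genes whose profile over the 6 samples lay nearest to that of Cyp26a1, by the root mean square difference of log2 CPM centred on each gene's mean and among 12501 protein-coding genes, were Smim26 (0.108), Ccdc28a (0.135) and Pdzk1ip1 (0.139). Cyp26a1 itself varied by 0.547 on this scale. Smim26 had 9.84, 11.3 and 7.63 CPM in WT and 4.79, 5.83 and 3.47 CPM in Dlx2OE. For Cyp26b1 and Aldh1a3 the nearest genes were looked up after their values were seen. Those of Cyp26b1 were Cdc42ep3 (0.110), Nbl1 (0.123) and Adam33 (0.149). Those of Aldh1a3 were St8sia6 (0.235), Marveld3 (0.317) and Tmprss13 (0.346).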

How the data were processed

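Bulk RNA-seq of E12.5 maxillary prominences was analysed in 3 WT and 3 Dlx2OE samples, grouped by the genotype in the labels. The files hold raw counts per gene as deposited by the authors, who filtered the paired reads, mapped them to mm10 with STAR 2.7.3a and counted them with HTSeq 0.12.4 in union mode, which drops reads on more than 1 gene. Tool versions come from the submitters' processing notes. The annotation release and the strand setting were not given in the sources used here, so reads of a gene and of an overlapping or antisense gene cannot be told apart. Summary lines for reads on no gene, on several genes or at several places (16.8 to 25.3% of all lines' counts) were left out of library sizes and tests. Positions and lengths came from GENCODE M21 (GRCm38), which held 53706 of 53801 identifiers, and promoter windows from the RefSeq table of GRCm38.p6.

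Genotypes were compared on the counts in edgeR 4.0.16 under R 4.3.3 (filterByExpr with a minimum count of 10, TMM factors, quasi-likelihood F test on genotype, Benjamini-Hochberg adjustment over 17514 genes). Levels are TMM-scaled CPM with the SD over 3 samples. RPKM divides them by summed exon length. Log2 values for profiles used a prior count of 2. The floor of 3 counts covers counting error only, since amplified reads are not independent molecules. Scripts were tested on simulated data.

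Named were all members, every pathway gene at an adjusted p under 0.05, all receptors, Dlx2, and for each member called the 3 protein-coding genes of nearest profile with a mean log2 CPM of at least 1. Some genes that this rule or the lists select are not reported here. Other genes are named where a count or a result turns on them, which was decided after their values were seen. The members, the lists and the alternatives were chosen with earlier results of these data known. Same-numbered samples of the genotypes did not deviate together (correlations -0.072, -0.21 and 0.073), and no source calls the numbers pairs. Alternatives were DESeq2 1.42.0, RLE factors, library size alone, other filters, a replicate block, a loess correction for length and GC content (span 0.5), removal of mitochondrial and haemoglobin genes, a fold-change threshold and omission of each sample. Figures used matplotlib 3.10.9 in Python 3.11.15.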

Additional observations from a re-analysis of the deposited data

Results flagged for a closer look

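Reads that fell on no annotated gene lie outside the counts used above, and their share was higher in every Dlx2OE sample than in any WT sample. It was 5.75% in Dlx2OE sample 1, 7.81% in sample 2 and 14.7% in sample 3, against 5.03 to 5.43% in WT. Dlx2OE sample 3, with the highest share, had the lowest Cyp26a1, Cyp26b1, Dhrs3, Crabp1, Crabp2 and Rarb levels of its genotype. The other members were lowest elsewhere, Aldh1a2 in Dlx2OE sample 1 and Rdh10, Aldh1a1 and Aldh1a3 in Dlx2OE sample 2. How many of all genes were lowest in Dlx2OE sample 3 was not counted, so these places are a description only. Without it the log2 fold change was -0.73 for Cyp26a1 and 1.36 for Cyp26b1. The part of this share in the levels of the members was not tested.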

How the results depend on the processing

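Of the 10 members, Aldh1a2, Rdh10, Dhrs3, Crabp2 and Rarb kept their direction and their side of the threshold under all 15 alternatives, as did Dlx2. Cyp26a1 stayed below 0 (adjusted p under 0.05 in 7 of 15) and Cyp26b1 above 0 (in 6 of 15). The log2 fold change of Cyp26a1 was -0.92 with RLE factors, -0.86 with library size alone, -0.75 with the length and GC correction and -0.79 with that correction and the replicate block, all at an adjusted p above 0.05, and -1.12 to -0.73 when 1 sample was left out. Cyp26b1 passed at 1.21 with library size alone, 1.13 without a filter, 1.16 with 10 counts in every sample and 1.15 in DESeq2, and ranged from 0.73 to 1.36 when 1 sample was left out. Crabp1 turned to 0.18 with the length and GC correction and 0.19 with the block as well, and ranged from -0.26 to 0.026 with 1 sample left out, as Aldh1a1 did from -0.84 to 0.27 and Aldh1a3 from -1.26 to 0.059.

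The number of members called was 2 without a filter, with 10 counts in every sample and in DESeq2, and 0 with RLE factors, with the length and GC correction with or without the block, and with the fold-change threshold. It was 0 to 2 with 1 sample left out (0 without WT sample 1, WT sample 2 or Dlx2OE sample 2, 2 without Dlx2OE sample 1). With library size alone the 1 member called was Cyp26b1. Pathway genes called were 7 without a filter, 9 in DESeq2, 5 with the block, 4 with the length and GC correction with or without the block, and 0 to 8 with 1 sample left out. Over all genes 1130 were called, 2044 without a filter, 2459 in DESeq2, 578 with the length and GC correction and the block, and 79 to 2091 with 1 sample left out. The cause was not tested.

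The replicate numbers do not pair the samples. With the number as a block 961 genes and 1 member were called, and the log2 fold change was -0.96 for Cyp26a1 (adjusted p = 0.0433, edgeR) and 1.08 for Cyp26b1 (adjusted p = 0.0870). With 3 samples a genotype no exact permutation p can go below 0.1, and Aldh1a1 had 15 to 62 counts a sample, with an SE of 0.512 for its log2 fold change.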

Other observations

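A DR5 stood in the windows of 31 gene symbols, Cyp26a1 and Rarb among them, a set that was searched for after earlier results of these data were known. Of these, 8 were tested, and edgeR called 2 lower, Cyp26a1 and Blvrb (-0.87, adjusted p = 0.0427), and 0 higher. Of all genes tested, 3.46% were called lower and 2.99% higher. Cyp26a1 was the member already called above, so its call and its direction are no separate result here. All 8 log2 fold changes were below 0, from -1.34 to -0.03 with a median of -0.66, beside 49.7% of all genes tested with a value below 0. The others were Cfap45, Hbb-y, Ppbp, Prokr2, Rarb and Syndig1. Hbb-y is an embryonic globin, and the summed erythroid markers were lower in Dlx2OE as well.

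Ttr, of the list of retinol uptake, storage and transport, did not pass the filter and had 110, 13 and 7 counts in WT and 0, 6 and 1 counts in Dlx2OE.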
